A study of Saccharomyces cerevisiae with 54 samples.

Results

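YJM269 is a diploid strain of the budding yeast Saccharomyces cerevisiae that came from an apple juice fermentation. Its 3 arrays out of 54, 1 strain of 17, were chosen by their titles. Each array gave the log2 ratio of one strain's transcripts to those of DBY8268, for up to 6264 open reading frames. The 16 other strains, B1, I14, K1, K9, M22, M8, PR, RM11a, SB, Y1, Y10, Y12, YJM308, YJM789, YPS1009 and YPS163, had 3 arrays each, or 4 for M8, Y10 and YPS163, which made 51 arrays. RM11a and YJM789 were haploids. DBY8268 is a diploid of S288c descent that is homozygous for ho and for GAL2 and carries ura3-52 over ura3-delta. All strains, DBY8268 included, grew in the rich medium YPD at early log phase, with no treatment. DBY8268 RNA was the other channel of every array, with no array of its own. A ratio below sets YJM269 against that one laboratory strain, and a difference sets YJM269 against the mean of the 16 other strains' means.

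Yeast takes up sulfate, activates it with ATP, reduces it to sulfide and joins the sulfide to a carbon skeleton made from aspartate, which yields homocysteine, methionine and cysteine. The genes of this route are driven by the activator Met4, which binds DNA through the partners Cbf1, Met31, Met32 and Met28 and is held in check by the ubiquitin ligase subunit Met30. The genes for many other amino acids share a second activator, Gcn4. In a medium that supplies amino acids these routes are usually kept low.

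The YJM269 arrays held 5758, 5611 and 5397 values. Arrays 1 and 2 carried YJM269 in the Oyster650 dye on slide series yG5, and array 3 carried it in Oyster550, with dyes reversed, on slide series yG6. Their ratios correlated across genes at r = 0.75 for arrays 1 and 2, 0.83 for arrays 1 and 3 and 0.84 for arrays 2 and 3, where genes are not independent replicates. Each YJM269 array shared its slide with an array of another strain, array 1 with SB, array 2 with B1 and array 3 with YJM308. The label of a diploid strain was checked on 19 genes that only a cells, alpha cells or haploids transcribe. Of these, 15 had a value on at least 1 YJM269 array and 7 could be tested against the other strains. Against DBY8268, 3 a-specific, 2 alpha-specific and 5 haploid-specific genes were tested, with median ratios of 0.07, -0.78 and -0.08. By limma 0 were called against the other strains or DBY8268, with 0 at an unadjusted p under 0.05 against the other strains. The a-factor exporter STE6 had a mean ratio of 0.07 in YJM269 and of 4.76 in the haploid RM11a. The alpha-agglutinin SAG1 had a mean ratio of 0.18 in YJM269 and of 5.56 in the haploid YJM789.

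Of 5511 genes tested against the other strains, 165 were higher in YJM269 (2.99%) and 53 were lower (0.962%), by limma with Benjamini-Hochberg adjusted p under 0.01. The test against DBY8268 covered 5689 genes, with 287 higher (5.04%) and 241 lower (4.24%) in YJM269. The comparisons share the YJM269 arrays. In both 105 genes were higher and 43 were lower, while 59 genes were higher than in the other strains without a call against DBY8268. The sulfur and amino acid lists held 47 of the 165 higher genes, Ty elements held 26 and the remaining 92 lay outside both. The difference had a median standard error of 0.26 and a median over all tested genes of -0.0038. Without array 1 the counts were 95 higher and 30 lower, without array 2 they were 101 and 28, and without array 3 they were 104 and 33.

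The genes of sulfate uptake and reduction stood highest among the sulfur lists. Of the 10 genes, 9 were higher in YJM269 than in the other strains, by 1.64 to 3.68 on the log2 scale, and the same 9 were higher than in DBY8268. The median difference of the list was 2.49, all 9 calls held without any one of the 3 arrays, and the median was 2.77 within slide series yG5 and 2.74 within yG6. SUL1 and SUL2 were not tested within yG6, so these medians do not cover the same genes. MET10, MET5 and MET3 had differences of 3.90, 3.49 and 3.43 in yG5 and of 3.33, 2.74 and 2.86 in yG6, while MET16 was at 3.31 in both. MET1, MET14 and MET22 had differences of 2.43, 2.13 and 1.87 in yG5 and of 1.88, 2.09 and 1.81 in yG6. The array medians of the list were 2.97, 3.13 and 2.96.

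SUL1 and SUL2 encode the sulfate permeases. SUL1 had ratios of 1.92, 2.5 and 1.84 on the 3 YJM269 arrays, and the other strains ran from -0.34 in B1 through a median of 0.13 to 4.71 in M22. SUL2 had ratios of 2.85, 3.36 and 3.07, and the other strains ran from -0.82 to 3.17, with a median of 0.11. The YJM269 means lay above those of every other strain but M22. The differences were 1.64 ± 0.22 (SE, n = 3, adjusted p = 0.000177) for SUL1 and 2.80 ± 0.28 (SE, n = 3, adjusted p = 7.05e-08) for SUL2, by limma.

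The enzymes that activate sulfate came next. MET3, ATP sulfurylase, had ratios of 4.24, 3.94 and 3.78 against a mean of 0.86 in the other strains, an 8.75-fold difference (adjusted p = 9.64e-13, limma). MET14, the kinase that phosphorylates adenylyl sulfate, had ratios of 2.52, 2.90 and 2.59 against 0.62, a 4.14-fold difference. MET16, the reductase that releases sulfite, had ratios of 3.37, 3.68 and 3.73 against 0.35, a 9.46-fold difference, and its YJM269 mean of 3.59 was level with that of M22. MET22, the phosphatase that clears the adenosine bisphosphate left by that step, had ratios of 1.63, 2.06 and 1.81 against -0.07. It was the one sulfate gene whose 3 YJM269 arrays lay above every value on the 51 other arrays, as did 0.702% of genes with 3 YJM269 values.

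Sulfite is reduced to sulfide by an enzyme of the subunits Met5 and Met10, which carries siroheme. MET10 had ratios of 3.57, 3.93 and 2.96 against a mean of -0.19 in the other strains, a 12.8-fold difference (3.68 ± 0.34, SE, n = 3, adjusted p = 1.15e-09, limma). MET5 had ratios of 3.38, 3.82 and 3.18 against 0.31, an 8.88-fold difference. MET1, which starts siroheme synthesis, had ratios of 3.08, 2.45 and 2.81 against 0.60, a 4.52-fold difference. MET8, which completes siroheme, was the exception in the list: its difference was -0.30 (adjusted p = 0.82) over 2 arrays. Of the 9 called genes, 7 had M22 as the only strain above YJM269, and 2, MET16 and MET22, had none.

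**Figure D1:**
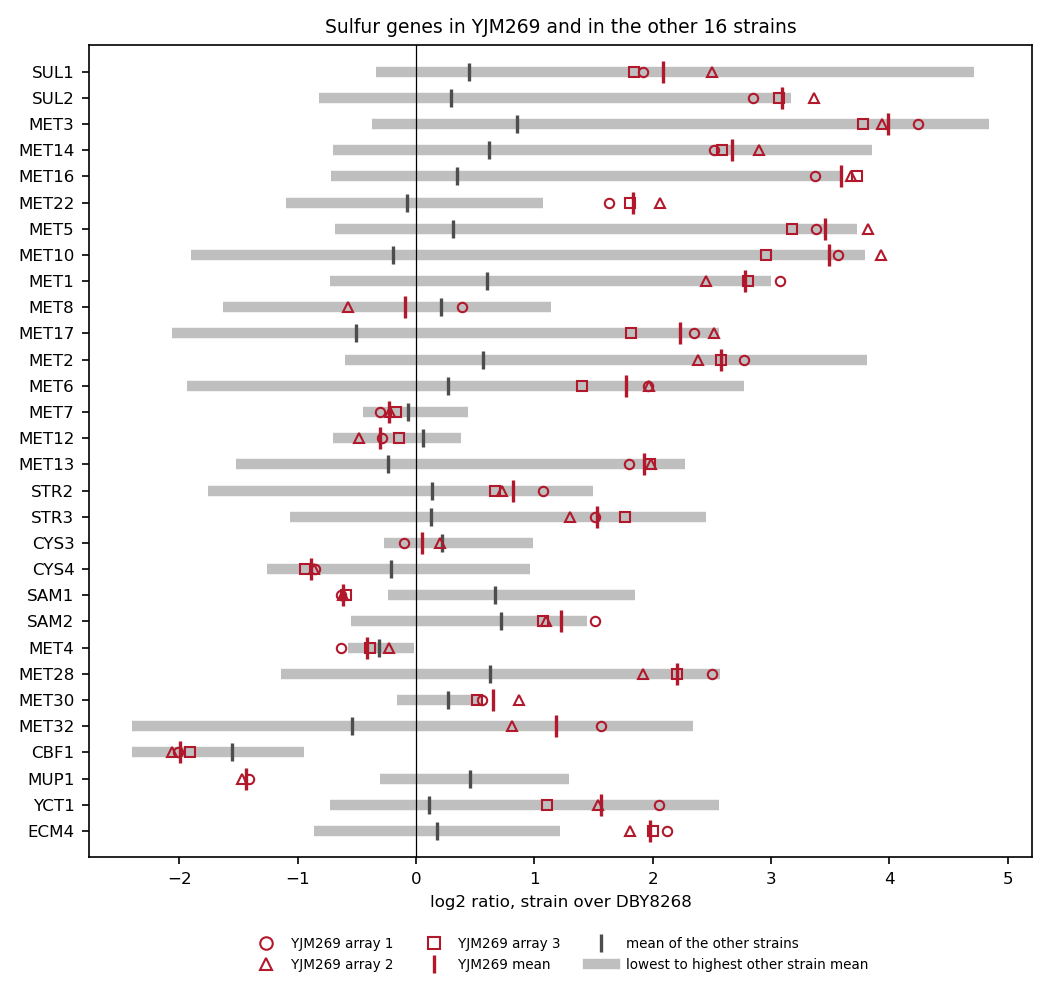
Log2 ratio to DBY8268 (horizontal axis) of 30 sulfur genes; open symbols are the 3 YJM269 arrays, red bars their mean, dark bars the mean of the other strains and grey bands the lowest to highest other strain mean. MET3, MET16, MET5 and MET10 lie at YJM269 means of 3.99, 3.59, 3.46 and 3.49, far from the dark bars, while SAM1 and MUP1 lie to the left of the grey bands.

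Of the 10 genes that join sulfide to carbon and make methionine and cysteine, 3 were higher than in the other strains and 0 were lower, with a median difference of 1.04. MET17, the sulfhydrylase that takes up sulfide, had ratios of 2.35, 2.52 and 1.82, and the other strains ran from -2.06 in YJM789 to 2.56 in M22. Its difference was 2.74 ± 0.38 (SE, n = 3, adjusted p = 1.34e-06, limma). MET2, which makes the acetylhomoserine that Met17 uses, had ratios of 2.77, 2.38 and 2.58 against a mean of 0.56. MET13, a methylenetetrahydrofolate reductase that supplies the methyl group of methionine, had ratios of 1.80, 1.99 and 1.98 against -0.24 (adjusted p = 0.00341). Without array 1, 2 or 3 its adjusted p was 0.0278, 0.0374 and 0.0346, which left 2 calls in the list each time.

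MET6, methionine synthase, and STR3, which splits cystathionine, had differences of 1.51 and 1.40 that missed the threshold (adjusted p = 0.0116 and 0.0153, limma), although both were higher than in DBY8268. The genes of the route from homocysteine to cysteine had differences of -0.67 for CYS4 and -0.17 for CYS3, and neither passed. The second reductase gene, MET12, had a difference of -0.36, and the folate enzyme MET7 of -0.17. STR2, which makes cystathionine from cysteine, had a difference of 0.69 (adjusted p = 0.485).

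SAM1 and MUP1 went the other way. SAM1 encodes an S-adenosylmethionine synthetase, and its ratios of -0.63, -0.62 and -0.59 lay below all 16 other strains, whose means ran from -0.23 in K9 to 1.85 in M22. It fell by 1.29 relative to the other strains (SE 0.17, n = 3, adjusted p = 9.98e-07, limma). The paralogous SAM2 had a difference of 0.51 (adjusted p = 0.241). MUP1, the high-affinity methionine permease, had ratios of -1.41 and -1.47 on the arrays that measured it, below all 13 other strains with a value, and fell by 1.89 (SE 0.22, n = 2, adjusted p = 3.65e-06). YCT1, a cysteine transporter, was higher by 1.46, with ratios of 2.05, 1.54 and 1.11, and its adjusted p of 0.000205 became 0.0173 without array 1.

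Of 11 genes for glutathione synthesis and use, 1 was higher, the omega-class glutathione transferase ECM4. Its ratios of 2.12, 1.81 and 2.00 lay above every value on the other arrays, against a mean of 0.17, a 3.49-fold difference (adjusted p = 0.000299, limma). The glutathione synthesis genes GSH1 and GSH2 had differences of 0.23 and -0.13. Across the 6 sulfur lists, 15 of 49 tested genes were higher and 2 were lower, with a median difference of 0.38.

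Among the regulators, MET28 was higher than in the other strains, with ratios of 2.5, 1.92 and 2.21 against a mean of 0.63 (adjusted p = 0.00577, limma). The call was lost without array 1, 2 or 3, with an adjusted p of 0.0741, 0.0228 and 0.0409. MET32 had ratios of 1.56 and 0.81 and a difference of 1.72 that missed the threshold (adjusted p = 0.0226). MET4 had ratios of -0.63, -0.23 and -0.39 and a difference of -0.10 (adjusted p = 0.841). MET30 had a difference of 0.38 (adjusted p = 0.207), and CBF1, at a ratio of -1.99 in YJM269 and a mean of -1.56 in the other strains, had one of -0.44 (adjusted p = 0.746). MET31 was measured on 1 YJM269 array, at -0.68, and was not tested.

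Arginine synthesis was the amino acid route with the most members called. All 9 genes that could be tested were higher than in the other strains and higher than in DBY8268, by 1.00 to 4.18 relative to the other strains, with a median difference of 1.78. YJM269 had the highest mean of the strains for 7 of the 9, against 6.8% of all genes tested. The median difference was 1.80 within slide series yG5 and 1.79 within yG6, where ARG7 was not tested, so these medians do not cover the same genes. The calls numbered 7 without array 1, 8 without array 2 and 7 without array 3. The last member, YER069W, which encodes the kinase and reductase of the pathway, had a ratio of 2.30 on 1 array and was not tested.

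ARG1, argininosuccinate synthetase, had ratios of 4.45, 4.03 and 3.60, and the other strains ran from -2.21 in YJM789 through a median of -0.11 to 2.42 in M22. All 3 arrays lay above every value on the 51 other arrays, and the 18.2-fold difference was the largest in the upward direction of any gene tested (4.18 ± 0.63, SE, n = 3, adjusted p = 9.67e-06, limma). ARG4, the lyase that completes arginine, had ratios of 3.31, 3.46 and 1.62 against a mean of 0.02, with array 3 well below the others. ARG7, ornithine acetyltransferase, had ratios of 2.54 and 2.57 on 2 arrays against -0.69, a 9.48-fold difference. CPA1, which serves carbamoyl phosphate synthesis, had ratios of 1.96, 1.69 and 1.48 against -0.03.

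The other members had differences of 1.00 to 1.78. ARG8, acetylornithine aminotransferase, had ratios of 2.31, 2.08 and 2.13 against a mean of 0.39. ORT1, the mitochondrial ornithine exporter, had ratios of 1.88, 1.07 and 1.80 against 0.33. ARG2, acetylglutamate synthase, had ratios of 1.28, 1.25 and 1.29 against 0.16, with all 3 above every value on the other arrays. ARG3, ornithine carbamoyltransferase, spread most widely, at 1.93, 0.06 and 0.74 against -0.09 (adjusted p = 0.00409, limma). The arginine breakdown genes CAR1 and CAR2 had ratios of 1.67 and 3.18, both called against DBY8268, and differences of 1.34 and 1.61 that missed the threshold against the other strains (adjusted p = 0.0161 and 0.0174).

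**Figure D2:**
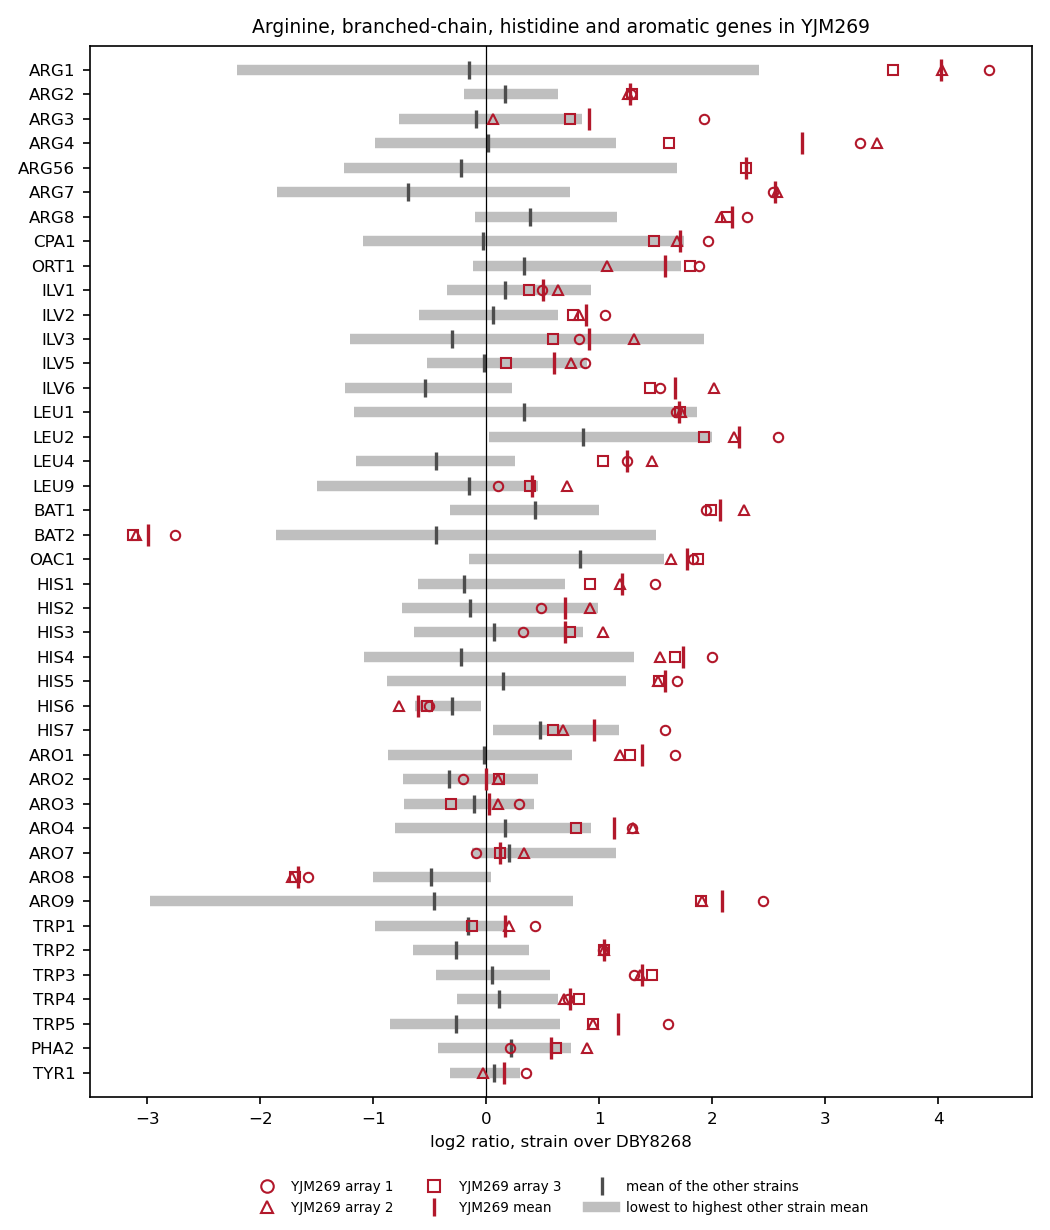
Log2 ratio to DBY8268 (horizontal axis) of genes in the arginine, branched-chain, histidine and aromatic lists, drawn as in the plot of sulfur genes; ARG56 is YER069W. The red symbols of ARG1, ILV6, BAT1, TRP3 and ARO9 lie to the right of the grey bands, and those of BAT2 and ARO8 lie to the left.

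In the branched-chain list 6 of 12 genes were higher and 1 was lower, with a median difference of 1.08. ILV6, the regulatory subunit of acetolactate synthase, had ratios of 1.54, 2.01 and 1.45 against a mean of -0.54 in the other strains, a 4.62-fold difference (adjusted p = 1.35e-07, limma). LEU4, isopropylmalate synthase, had ratios of 1.24, 1.47 and 1.03 against -0.45. LEU1, isopropylmalate isomerase, had ratios of 1.68, 1.72 and 1.71 against 0.34. ILV3 and OAC1, a dehydratase and a mitochondrial carrier, had differences of 1.21 and 0.95. The calls numbered 3 without any one of the 3 arrays, and LEU1 was among those lost (adjusted p = 0.0211, 0.0235 and 0.0206 without array 1, 2 or 3).

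The 2 branched-chain transaminases parted. BAT1, the mitochondrial form, had ratios of 1.94, 2.28 and 1.99, above every value on the other arrays, and was 3.11-fold higher than the other strains (1.64 ± 0.19, SE, n = 3, adjusted p = 4.65e-08, limma). BAT2, the cytosolic form, had ratios of -2.76, -3.10 and -3.13, below every value on the other arrays, as were 0.241% of genes with 3 YJM269 values. It fell by 2.55 (SE 0.49, n = 3, adjusted p = 0.000518), and its adjusted p was 0.0101 without array 2 and 0.0104 without array 3.

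A similar split ran through the aromatic genes, of which 6 of 14 were higher and 1 was lower, with a median difference of 0.49. ARO9, the aminotransferase II that acts mainly in aromatic amino acid breakdown, had ratios of 2.45, 1.91 and 1.90, and the other strains ran from -2.98 in SB to 0.77 in YJM308. ARO8, the aminotransferase I used in synthesis, had ratios of -1.58, -1.72 and -1.69, below every value on the other arrays, and fell by 1.17 (SE 0.20, n = 3, adjusted p = 4.35e-05, limma). ARO10, the decarboxylase that follows the aminotransferases in breakdown, had ratios of 2.72, 2.48 and 2.77 against a mean of -0.11 (adjusted p = 0.00627). Its adjusted p was 0.0543, 0.04 and 0.054 without array 1, 2 or 3.

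The synthetic aromatic genes showed smaller and tighter differences. TRP3, a subunit of anthranilate synthase, had ratios of 1.31, 1.36 and 1.47 against a mean of 0.05 (1.33 ± 0.12, SE, n = 3, adjusted p = 1.74e-10, limma). TRP2, its partner, had ratios of 1.03, 1.04 and 1.04 against -0.27. TRP5, tryptophan synthase, had ratios of 1.61, 0.94 and 0.94 against -0.27. ARO1, which carries out several steps before chorismate, had ratios of 1.67, 1.18 and 1.27 against -0.02, and ARO4, one of the enzymes that open the route, was higher by 0.96. All 6 calls of the list held in number without any one array.

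In the histidine list 3 of 7 genes were higher, with a median difference of 0.84. HIS4, HIS5 and HIS1, enzymes of the route, had differences of 1.96, 1.43 and 1.40. HIS4 had ratios of 2.00, 1.54 and 1.67 against a mean of -0.22, and its adjusted p of 0.000653 became 0.0207 without array 1. HIS5 passed with all arrays and in no fit that left one out (adjusted p = 0.0211, 0.0118 and 0.0118). HIS1 kept its call without any one array.

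From aspartate towards threonine and methionine, HOM3, aspartate kinase, had ratios of 2.26, 2.01 and 1.94 against a mean of 0.11, a 3.90-fold difference (adjusted p = 2.61e-06, limma). HOM2, which takes the next step, had ratios of 1.41, 1.5 and 1.15 against -0.08, and its adjusted p of 0.000982 became 0.0177 without array 1 and 0.0228 without array 2. The threonine branch genes THR1 and THR4 had differences of 0.15 and 0.35, and neither passed. SER33, which opens serine synthesis, had ratios of 1.72, 1.80 and 1.67 against 0.25 and was the 1 gene called of 11 for serine and glycine. In the lysine list 2 of 9 genes were higher, LYS2 by 1.25 and LYS20 by 1.05, with 0, 1 and 1 calls without array 1, 2 or 3. Against DBY8268, 0 of the 9 were called. LYS20 had a ratio of -0.20 to DBY8268, so its call came from a low mean of -1.25 in the other strains.

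Of 15 tested amino acid permeases, 2 were lower than in the other strains and 0 were higher. TAT1, a permease for tyrosine and branched-chain amino acids, had ratios of -4.72, -4.93 and -4.96, and the other strains ran from -4.22 in SB through a median of -2.04 to -0.65 in Y10. All YJM269 values lay below every value on the other arrays, and it fell by 2.83 (SE 0.23, n = 3, adjusted p = 3.6e-12, limma). BAP3, a branched-chain amino acid permease, had ratios of -0.94, -1.40 and -1.53 and fell by 1.37 (SE 0.22, n = 3, adjusted p = 2.09e-05). The remaining 13 of 15 tested permeases, among them GAP1, at a difference of -0.84, and AGP1, at 0.97, did not pass.

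In the glutamate and aspartate list, AAT2, cytosolic aspartate aminotransferase, was higher by 1.12, with ratios of 0.57, 1.11 and 0.91. GDH1, the main ammonium-assimilating glutamate dehydrogenase, had ratios of 0.03, 0.41 and -0.13 while all 16 other strains had means from 0.32 to 1.88, and it fell by 0.98 (SE 0.22, n = 3, adjusted p = 0.00255, limma). Its call was lost without array 1 and without array 3 (adjusted p = 0.0372 and 0.0593). Of 19 aminoacyl-tRNA synthetases, 0 were called by limma, with a median difference of 0.15. At an unadjusted p under 0.05, 3 were higher and 1 was lower, and the share over all genes was not counted. Over the 13 amino acid lists 32 of 131 tested genes were higher and 5 were lower, with a median difference of 0.31. The higher calls numbered 20 without array 1, 23 without array 2 and 23 without array 3.

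GCN4 itself had ratios of 1.70, 0.61 and 0.41, with array 1 apart from the others, and a difference of 0.75 that did not pass (adjusted p = 0.197, limma). Its level was above the mean of every other strain but Y1, at 1.23. Of 9 tested regulators of amino acid genes, GLN3, an activator of nitrogen utilization genes, was the 1 called, at 0.51, 0.57 and 0.62 against a mean of -0.21. Its adjusted p of 0.00622 became 0.0389, 0.0478 and 0.0563 without array 1, 2 or 3.

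Across strains, the sulfate and arginine lists did not rank the strains alike. In the sulfate list the median ratio was 3.72 in M22, 2.94 in YJM269, 1.78 in SB, 0.97 in B1 and 0.25 in YJM308, with the remaining 12 strains at 0.21 or below. In the arginine list it was 2.15 in YJM269, 1.00 in M22 and 0.63 in Y1, with SB at -0.05 and B1 at -0.03. YJM269 had the highest median for the branched-chain (1.08), histidine (0.95) and aromatic (0.66) lists, where the next strain stood at 0.39, 0.85 and 0.34. SB, B1 and YJM308, next in the sulfate order, are the strains whose arrays shared slides with YJM269. SB had sulfate medians of 1.37 on the shared slide and 1.95 and 2.07 on the others, and B1 had 1.31 on the shared slide and 0.47 and 1.64 on the others. YJM308 had 0.44 on the shared slide and 0.31 and 0 on the others. The part of the shared slide in these levels was not tested.

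**Figure D3:**
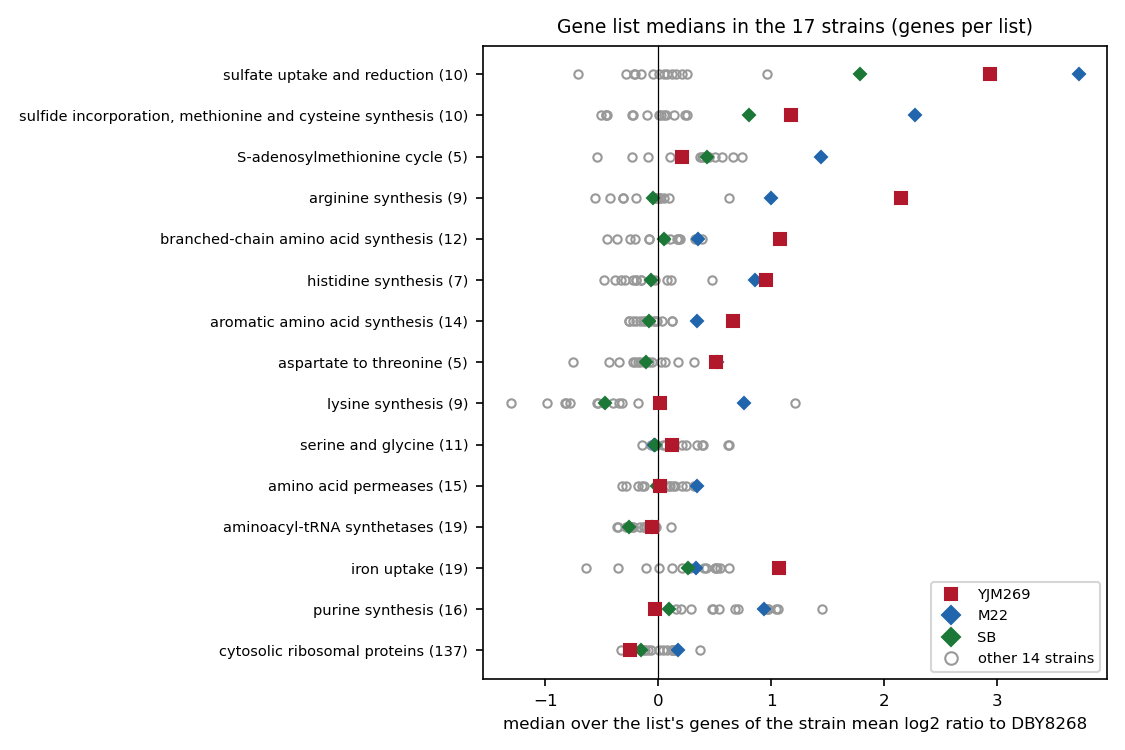
Median over each gene list of the strain mean log2 ratio to DBY8268 (horizontal axis), with the number of genes in parentheses; squares are YJM269, diamonds M22 and SB, and open circles the other 14 strains. YJM269 is second to M22 in the sulfate list (2.94 and 3.72) and stands alone in the arginine list (2.15, next 1.00).

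M22 and SB were compared with YJM269 gene by gene, since both held high sulfate medians. Against M22, 142 of 4679 genes were higher in YJM269 (3.03%) and 31 were lower (0.663%). In the sulfate list 9 genes were tested, 0 were higher (limma, with 1 higher and 3 lower at an unadjusted p under 0.05) and 1 was lower, SUL1, which fell by 2.63 relative to M22 (adjusted p = 3.1e-05, limma). The other sulfate genes differed by -1.18 for MET14 to 0.76 for MET22, none past the threshold, which does not show that the strains are alike. SAM1 had a ratio of 1.85 in M22 and of -0.61 in YJM269 (adjusted p = 4.85e-10). In the arginine list 2 of 9 genes were higher than in M22, ARG7 by 1.81 and ARG2 by 1.40. M22 arrays were all of slide series yG6, which holds array 3 of YJM269, while both ARG7 values of YJM269 came from yG5. With slide series as a term the ARG7 difference was 1.53 and did not pass (adjusted p = 0.0144), nor did it without array 1 or 2 (0.025 and 0.0327). Of 62 tested Ty genes, 45 were higher than in M22.

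Against SB, 69 of 5249 genes were higher in YJM269 (1.31%) and 26 were lower (0.495%). In the sulfate list 2 of 8 tested genes were higher, MET16 by 1.93 (adjusted p = 8.13e-05, limma) and MET22 by 1.61 (adjusted p = 0.00121). MET22 did not pass without array 2 (adjusted p = 0.0131). In the arginine list 6 of 9 were higher and in the aromatic list 6 of 14. ARG4 did not pass without array 1 or 2 (adjusted p = 0.0773 and 0.0871), nor ORT1 without array 1 or 3 (0.08 and 0.059). ARG1 had a ratio of 4.03 in YJM269 and of -0.94 in SB. ARO9 and ARO10 were higher by 5.07 and 5.47, with SB at -2.98 and -2.81. TAT1, at -4.87 in YJM269 and -4.22 in SB, differed by -0.65 and did not pass (adjusted p = 0.367).

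**Figure D4:**
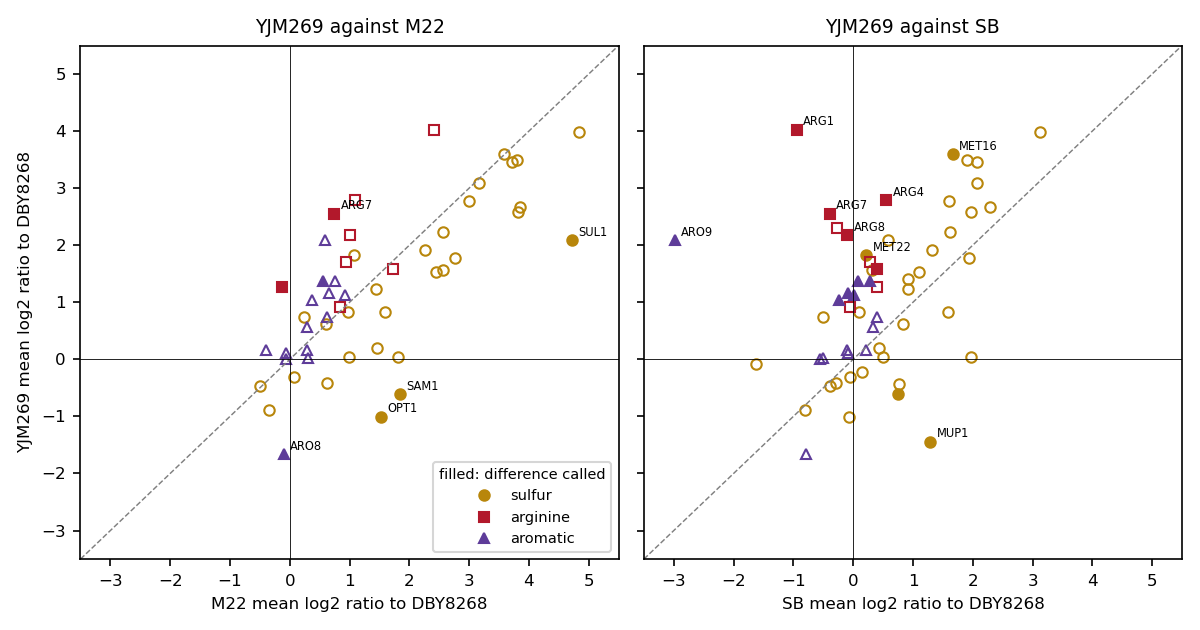
Mean log2 ratio to DBY8268 in YJM269 (vertical axis) against M22 (left) and SB (right) for the sulfur genes other than the regulator and glutathione lists, and the arginine and aromatic genes; filled symbols passed the test of the difference, the dashed line marks equal ratios, and called genes that differ by 1.5 or more are named. The called sulfur genes SUL1, SAM1 and OPT1 lie below the line against M22, and the called arginine genes lie above it against SB.

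Of the 5331 tested genes outside the sulfur and amino acid lists, 118 were higher and 46 were lower than in the other strains. Of 19 tested iron genes 3 were higher and 0 were lower, with a median difference of 1.10, and the list's median ratio of 1.07 was the highest of the strains, the next being 0.62. TIS11, which speeds the decay of mRNAs when iron is short, had ratios of 2.83, 2.07 and 1.88 against a mean of -0.33 (adjusted p = 0.00243, limma). HMX1, heme oxygenase, had ratios of 3.43, 3.30 and 3.12 against 1.89, above every value on the other arrays. FRE6, a vacuolar ferric reductase, had ratios of 1.21, 1.15 and 0.85 against -0.20. None of the 3 calls held without any one array. Without array 1, 2 or 3 the adjusted p was 0.0543, 0.0192 and 0.0132 for TIS11, 0.05, 0.0374 and 0.021 for HMX1, and 0.0414, 0.0361 and 0.0127 for FRE6. ISU2, a scaffold for iron-sulfur clusters, was higher by 2.33, with an adjusted p of 0.0109 without array 2.

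VHT1, the biotin permease, had ratios of 2.91, 2.65 and 2.51 against a mean of 0.47, a 4.66-fold difference (adjusted p = 2.78e-07, limma). BIO4, dethiobiotin synthetase, had ratios of 0.03, 0.56 and 0.45 against -1.16, so it was higher than in the other strains and close to DBY8268. BNA1 and BNA4, both named for the size of their differences, encode enzymes of the kynurenine route from tryptophan to NAD. No list of that route was made, so its other enzymes are not described. BNA1 had ratios of 2.91, 3.10 and 2.05 against a mean of -0.00, above every value on the other arrays. BNA4 had ratios of -0.49, -0.71 and -0.91 while the other strains ran from 0.40 to 3.12, and it fell by 2.30 (SE 0.54, n = 3, adjusted p = 0.00368). Its adjusted p was 0.0258, 0.0367 and 0.0461 without array 1, 2 or 3. TNA1, the nicotinic acid permease, had ratios of -1.08, -0.88 and -1.18, below every value on the other arrays, and fell by 1.61. Its adjusted p of 0.000854 became 0.0148 without array 1 and 0.0175 without array 3.

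Further genes stood above the mean of the other strains. YGP1, a secreted glycoprotein, had ratios of 1.34, 2.16 and 2.5 against a mean of -1.03, although 3 other strains were higher. GSC2, a catalytic subunit of glucan synthase, had ratios of 2.88, 2.78 and 2.65 and lay above all 16 other strain means. AAD15, which resembles aryl-alcohol dehydrogenases, was higher by 2.51, NCA3 by 2.21 and YIL165C by 2.17. Their mean ratios were 1.76, 2.54 and 1.66 in YJM269 and 1.99, 2.41 and 2.23 in M22. AAD15 also reached 2.40 in RM11a and ran down to -4.58 in K1. It was not called against DBY8268 (adjusted p = 0.0225, limma). ALD5, a mitochondrial aldehyde dehydrogenase, had ratios of 1.28, 1.03 and 1.26 against -0.54, above every value on the other arrays. HSP78, a mitochondrial chaperone, was higher by 1.54, the reductase OYE2 by 1.36 and superoxide dismutase SOD1 by 0.62. THI5 and THI11, near-identical thiamine synthesis genes that the probes may not separate, were higher by 1.45 and 1.70. Like AAD15, the genes OYE2, SOD1, THI5 and THI11 were not called against DBY8268. Calls were lost without any one array for AAD15 (adjusted p = 0.0203, 0.0317 and 0.036 without array 1, 2 or 3), SOD1 (0.0203, 0.295 and 0.0182), THI5 (0.061, 0.0649 and 0.0512) and THI11 (0.0533, 0.0953 and 0.0408). HSP78 and OYE2 lost theirs without array 1 (0.0136 and 0.0173), and NCA3 without array 2 or 3 (0.0192 and 0.0107).

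Among the lower genes, GPX2, a glutathione peroxidase, had ratios of -2.17, -1.84 and -2.18 against a mean of -0.20 and lay below every value on the other arrays (adjusted p = 2.23e-05, limma). TDA1, a protein kinase, had ratios of -3.11, -3.26 and -2.11 against -0.25, and YOR385W, of no stated function, had -4.81, -3.02 and -2.48 against -0.30. SIP2, a subunit of the Snf1 kinase, fell by 1.39, the cell wall pathway kinase MKK2 by 1.31, the lipid phosphatase LPP1 by 1.34 and the phospholipase PLB2 by 1.57. PLB2 was not called against DBY8268. PHO3, an acid phosphatase, fell by 1.67, APT2 by 1.71, CSS3 by 2.12 and KTD1 by 1.45. ZRT2, a zinc transporter, had ratios of -1.01, -0.99 and -1.0 against 0.03. PHO3 (adjusted p = 0.0306, 0.0228 and 0.0364), APT2 (0.0319, 0.128 and 0.0635) and ZRT2 (0.0117, 0.0102 and 0.0103) did not pass without array 1, 2 or 3. TDA1 did not pass without array 2 (0.0118), CSS3 without array 1 (0.0227), MKK2 without array 2 or 3 (0.0183 and 0.0674) and KTD1 without array 1 or 3 (0.0344 and 0.0185).

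ACO1 and IDH2, mitochondrial enzymes early in the tricarboxylic acid cycle, were the 2 lower genes of 13 tested there. ACO1, aconitase, had ratios of -1.64, -1.17 and -1.62 against a mean of -0.18 and fell by 1.29 (SE 0.32, n = 3, adjusted p = 0.00701, limma), with an adjusted p of 0.0829, 0.0237 and 0.0731 without array 1, 2 or 3. It neighbours MET17 on chromosome XII, which was higher by 2.74. IDH2 fell by 1.05 and ERG6, of the ergosterol route, by 0.64, and neither passed without array 1 (adjusted p = 0.0897 and 0.0254), array 2 (0.046 and 0.13) or array 3 (0.0719 and 0.0752). ERG6 was not called against DBY8268. Purine synthesis had 0 calls of 16 by limma and 8 genes lower at an unadjusted p under 0.05, a cutoff whose share over all genes was not counted. Its median difference was -0.57, with the lowest median ratio of the strains. That ratio was -0.025, with 0 genes called against DBY8268, while the other strains ran from 0.095 in SB to 1.45 in K1. The median difference from SB was -0.02.

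**Figure D5:**
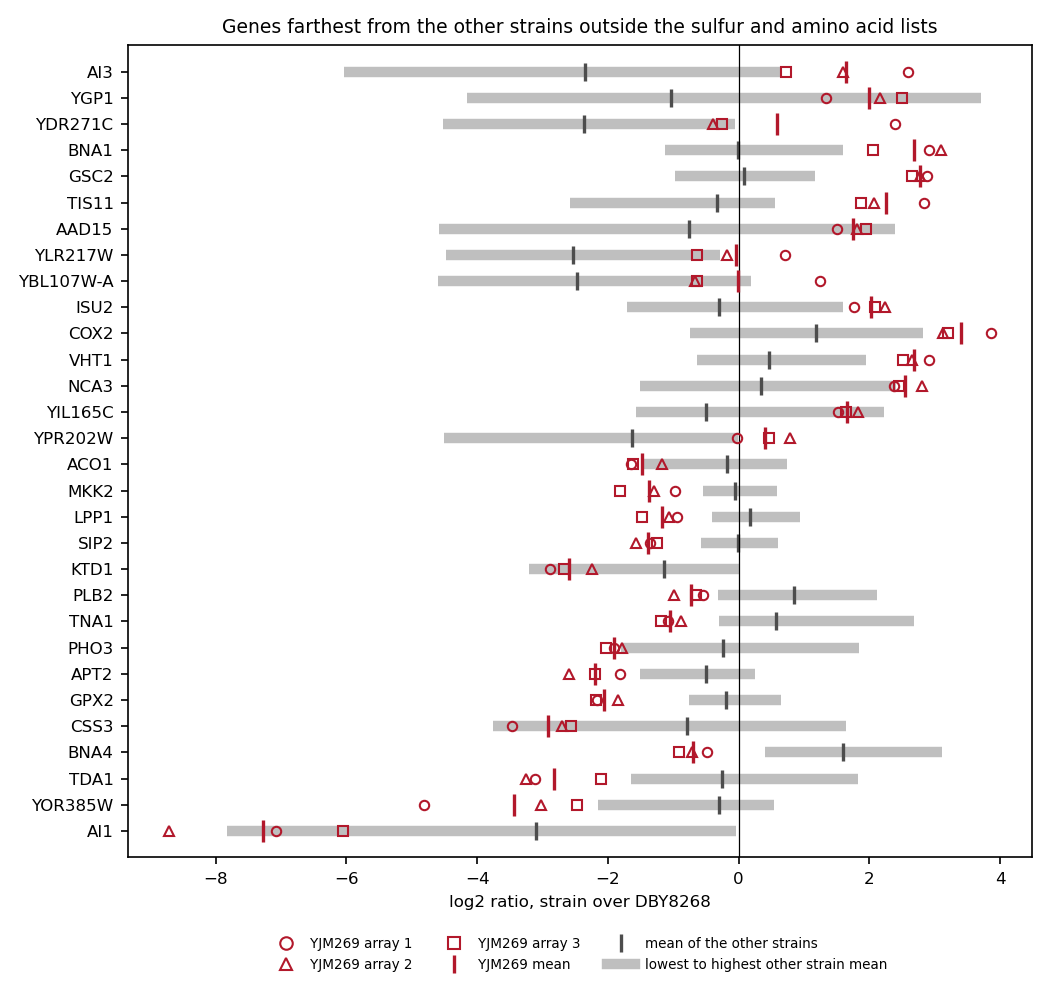
Log2 ratio to DBY8268 (horizontal axis) of the 15 called genes farthest above and the 15 farthest below the other strains outside the sulfur and amino acid lists and Ty elements, among genes measured on all 3 YJM269 arrays with the same sign of the difference on each, drawn as in the plot of sulfur genes. AI3 and AI1 have the largest differences among these genes (3.98 and -4.18), and array 1 stands apart from arrays 2 and 3 for YDR271C, YLR217W and YBL107W-A.

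Reading frames in the introns of the mitochondrial gene COX1 gave the most extreme values in each direction among these genes. The intron frame AI3 had ratios of 2.59, 1.6 and 0.73, and the other strains ran from -6.03 in YPS163 to 0.66 in YJM789. The intron frame AI1 had ratios of -7.07, -8.71 and -6.05, while the other strains ran from -7.83 in B1 to -0.05 in YJM308, with a median of -0.95. It fell by 4.18 (SE 0.60, n = 3, adjusted p = 4.54e-06, limma), although 4 other strains were lower. COX2, a subunit of cytochrome oxidase encoded in the mitochondrion, had ratios of 3.86, 3.13 and 3.21 against a mean of 1.18, and its adjusted p of 0.000629 became 0.0253 without array 1. Of 8 protein genes of the mitochondrial genome it was the 1 called.

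Of 84 tested Ty genes, which are the protein genes of retrotransposons and share nearly identical copies that a probe cannot separate, 26 were higher than in the other strains and 1 was lower, while the median difference over the list was -0.21 and 36 genes lay above 0. The ratios of the 26 to DBY8268 ran from -1.95 to 2.35, and 9 of the 26 were higher than in DBY8268. One of the 9, YDR210W-A, had ratios of 3.19, 1.73 and 2.13 against a mean of -1.02 in the other strains. YOR192C-A and YDR034C-C had means of 2.12 and 2.05. YPL060C-A was the 1 lower gene, by -1.72, with an adjusted p of 0.0649 without array 2 and 0.0255 without array 3. Over the 26 higher genes the medians were 0.83 on array 1, -0.47 on array 2 and -0.64 on array 3, and 18 calls were left without array 1. Among the remaining 61 genes of the list, 53 were lower than in DBY8268, with a median ratio of -4.12. YDR271C, YLR217W and YBL107W-A, which the lists do not hold, were likewise highest on array 1, as in ratios of 2.39, -0.39 and -0.25 for YDR271C.

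Subtelomeric genes showed a further group whose height came from low values elsewhere. YPR202W had ratios of -0.02, 0.78 and 0.46 against a mean of -1.64 in the other strains, with an adjusted p of 0.0112 without array 2. Of 8 Y' helicase genes, whose copies are nearly identical, YRF1-5 and YRF1-2 were higher, by 1.29 and 0.84, with ratios of -0.02 and -0.21 to DBY8268. YJM269 had the highest mean of the strains for 0 of the 8. The list's median ratio of -0.21 in YJM269 lay below B1 (0.435), Y12 (0.26) and Y10 (-0.16), and YPS1009 was lowest at -3.585. YRF1-5 had an adjusted p of 0.0257 without array 1 and 0.0255 without array 3, and YRF1-2 one of 0.0589, 0.0112 and 0.0461 without array 1, 2 or 3. No chromosome as a whole was offset in YJM269 (limma, 0 of 16 called, 0 at an unadjusted p under 0.05, lowest adjusted p = 0.868), with offsets of -0.05 on chromosome XV to 0.09 on chromosome VI relative to the other strains.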

How the data were processed

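RNA of each strain and of DBY8268 was labelled with Oyster dyes and hybridized to spotted long oligonucleotide arrays in biological triplicate, with dyes reversed on 18 of 54 arrays. The authors removed flagged and poorly correlated spots, normalized by regional mean-centering and deposited 1 value per frame and array, read here as log2 ratios of strain over DBY8268; the genome build is not given in the sources used here. Scale and direction are not stated with the values. The log2 scale follows the study's figures, and the direction rests on the high values of mating-type genes in the haploid strains and on the positive correlation of dye-reversed arrays of a strain. Arrays held 3393 to 5897 values, and their number limits the precision. Columns of no sample numbered 0. Names came from the R64 gene table for 5824 of 6264 frames, and no sequence was used here. Of the 87 frames taken as Ty genes, the list came from the study's annotation of RNA-mediated transposition.

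The deposited log2 ratios were fitted per gene with limma 3.58.1 in R 4.3.3, with 1 coefficient per strain over all arrays and moderated variances (prior degrees of freedom 3.53). A gene was tested with values on at least 2 YJM269 arrays and in at least 12 of the 16 other strains, or for M22 and SB on at least 2 arrays of each strain, at a false discovery rate of 0.01. The fit was tested on simulated data. Members, lists and tests were chosen with earlier results of these data known. Named genes were every called sulfur gene and the sulfur regulators, up to 4 called genes per direction in each amino acid list with GCN4, the 15 called genes farthest above and below with the same sign on 3 arrays, up to 3 called genes per direction in every other list, and mating-type genes; members outside this rule were named after their values were seen, to account for whole lists. One list member is not reported here by name. Lists are described by counts and medians. The share of all genes at an unadjusted p under 0.05 was not counted. Alternatives covered slide series, slide, dye, replicate number, scaling, filters, the reference strains and leaving out each YJM269 array.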

Additional observations from a re-analysis of the deposited data

Results flagged for a closer look

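With 3 arrays per strain no test for a lone outlying array was made. The ratios to DBY8268 of a sulfur or arginine gene, or of another amino acid gene by at least 2.5, differed between YJM269 and M22 or SB in 19 cases that passed limma's test of the difference itself. Relative to M22, YJM269 was lower for SUL1 by -2.63, for SAM1 by -2.46 and for the oligopeptide and glutathione transporter OPT1 by -2.53 on the log2 scale. It was also lower for BAT2 by -3.01, BAP3 by -2.66 and TAT1 by -3.61, and higher for ARG2 by 1.40 and ARG7 by 1.81. BAT2 did not pass without array 2 or 3 (adjusted p = 0.0164 and 0.0158), nor ARG7 without array 1 or 2 (0.025 and 0.0327). SAM1, OPT1 and BAP3 were above DBY8268 in M22, at 1.85, 1.52 and 1.37, and below it in YJM269, at -0.61, -1.0 and -1.29.

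Relative to SB, YJM269 was higher for MET16 by 1.93 and MET22 by 1.61 and lower for SAM1 by -1.36 and MUP1 by -2.73. MET22 did not pass without array 2 (adjusted p = 0.0131), ARG4 without array 1 or 2 (0.0773 and 0.0871), or ORT1 without array 1 or 3 (0.08 and 0.059). Arginine genes differed by 4.96 for ARG1, 2.24 for ARG4, 2.94 for ARG7, 2.27 for ARG8 and 1.18 for ORT1. ARO9 and ARO10 differed by 5.07 and 5.47, with SB at -2.98 and -2.81 and YJM269 at 2.09 and 2.66. Array 1 of YJM269 shared a slide with an SB array, and the part of the slide in these differences was not tested beyond the slide block.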

How the results depend on the processing

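The counts against the other strains (165 higher, 53 lower) became 104 and 24 from the YJM269 arrays alone, 34 and 13 over genes with a value on all arrays, 263 and 97 at a false discovery rate of 0.05, 95 and 22 within slide series yG5, and 3 and 1 within yG6, which holds 1 YJM269 array. Against DBY8268 (287 and 241) the same settings gave 179 and 139, 60 and 37, 449 and 393, 153 and 146, and 23 and 62. Against M22 (142 and 31), genes on all arrays gave 14 and 9, the rate of 0.05 gave 273 and 60, yG6 gave 32 and 6, and slide series as a term gave 74 lower. Against SB (69 and 26) the counts were 19 and 5, 143 and 55, and 26 and 9 within yG5. Within yG6 YJM269 and SB had 1 array each, so no count is given for that fit. Leaving out 1 YJM269 array gave 95 to 104 higher and 28 to 33 lower against the other strains, 154 to 168 and 160 to 172 against DBY8268, 89 to 105 and 22 to 26 against M22, 38 to 48 and 18 to 21 against SB, and 0 chromosomes. Fewer genes or arrays entered most of these fits. MET4 ranged from -0.20 to 0.0035 without 1 array, not called. The replicate block gave 195 higher and 57 lower. The deviations of arrays of different strains had a median correlation of 0.06 for the same number and of -0.03 for different numbers. Of 411 same-number pairs, 164 correlated above 0.1, and 3 of 3 YJM269 arrays correlated best with their own number. In most strains number 3 was the dye-reversed array on slide series yG6, so the number partly follows dye and slide series. Of 93 named called genes, all kept their direction in every alternative that gave a value, 52 stayed called without any 1 array, and 7 were called in every alternative that tested them. M22 had no array in yG5, so that fit was not made.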

Other observations

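Several of the lowest genes lacked a value on array 3, and so fell outside the rule for named genes; they were picked after their values were seen. AYT1, an acetyltransferase gene, had ratios of -4.05 and -5.21 on arrays 1 and 2 against a mean of -0.37 in the other strains, and its difference of -4.26 (adjusted p = 3.28e-09, limma) was the lowest of all genes tested. MST28 on chromosome I and its close relative MST27 on chromosome VII had differences of -4.12 and -3.80, with ratios of -3.11 and -4.65 for MST28 and of -3.5 and -4.10 for MST27. PRM8, the neighbour of MST27, had ratios of -5.15 and -3.44 and a difference of -2.87, although 3 of the 12 other strains with a value were lower than its mean of -4.295.

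Some genes called against the other strains were neighbours on a chromosome, among them ARO9 with YHR138C, at 2.55 and 1.30, and YSC83 with ARG4, at 0.87 and 2.78. The subtelomeric YPR202W and YPR203W, at 2.04 and 2.02, were another such pair. How many pairs would arise among as many genes placed without order was not worked out. URA3, which is mutated in DBY8268, had ratios of -1.6, -0.82 and -1.04 in YJM269, a mean of -1.15 against -0.69 in the other strains; the position of its probe relative to the mutations is not given in the sources used here.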
